A study of Drosophila melanogaster with 17 samples.

Results

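The transcripts of 8 genes for RNA-binding proteins of neurons were followed across mRNA-seq libraries of the larval central nervous system (CNS) of Drosophila melanogaster. The genes were listed by name, at a time when earlier results of these data were known. They were elav, fne and Rbp9 of the ELAV family, and the translational regulators Fmr1, pum, nos, orb2 and Atx2. All 8 were found among the 13872 genes of the deposited count table. X7/C24 larvae (4 libraries) carried the elavGAL4 driver, the UAS transgene for a hairpin RNA against Smn (RNAi-C24) and, recombined with it, the deficiency Df(3L)SmnX7, which removes a copy of Smn in every cell. C24 larvae (7 libraries) carried the driver and the hairpin transgene without the deficiency. WT larvae (6 libraries) carried the driver with a UAS-PWIZ insertion, so the driver is shared by all groups. The elav promoter drives GAL4 in post-mitotic neurons, whereas the CNS, dissected late in the third larval instar, also holds glia, neuroblasts and attached tissue. Each library came from a pool of about 200 dissected CNS and stands for no single animal.

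The 17 libraries held 7883183 to 28339670 counts (median 18432613), and were sequenced in a pilot round (3 WT and 4 C24), a second round (WT_4 to WT_6 and C24_5 to C24_7) and, with the 4 X7/C24 libraries alone, the third round. Genotype and sequencing round therefore cannot be told apart in any comparison with X7/C24. Levels are given as CPM, counts scaled to library size, after TMM scaling over the 17 libraries, and as RPKM, which also divides by exon length. In WT_1, WT_2 and C24_1 the 12 neuron markers summed to 79.9 to 526.5 CPM, against 3664 to 7274 CPM in the other 14 libraries, while 8 muscle markers summed to 1548 to 2907 CPM, against 20.3 to 51.2 CPM. X7/C24_4, which the authors set aside for its duplicates, had the lowest neuron sum of these 14. The main comparisons used 3 libraries a group: X7/C24_1 to X7/C24_3, C24_5 to C24_7 and WT_4 to WT_6.

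ELAV proteins bind U-rich stretches of RNA and govern alternative splicing and the choice of polyadenylation site, and they are the classical markers of post-mitotic neurons. Elav is mainly nuclear, Fne (found in neurons) is a close paralog that is largely cytoplasmic, and Rbp9 is a further paralog of the nervous system and the ovary. FMRP, the product of Fmr1, and the PUF protein Pumilio repress translation of bound mRNAs, and Pumilio does so together with Nanos and Brat. Orb2 is a CPEB protein that controls translation at synapses and is known from studies of long-term memory. Ataxin-2, encoded by Atx2, acts with Tyf on translation of the clock gene per.

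By the BDGP6 annotation elav lies on chromosome X at 509235 to 523226 (minus strand) and fne on X at 12917477 to 12950417 (plus strand), while Rbp9 lies on 2L at 2954762 to 2968434 (plus strand). Fmr1 is found at 10101420 to 10110121 (minus strand), pum at 9066343 to 9237682 (minus strand), nos at 19157238 to 19160202 (plus strand) and Atx2 at 15408423 to 15417277 (plus strand), all on chromosome 3R. The position of orb2 is 3L, 8937100 to 8954463 (minus strand). Reads were aligned by the authors to the earlier build, so these positions serve only to locate the genes. Counting did not use strand, so reads of overlapping exons cannot be assigned to a strand. Exons of elav overlap those of arg on the opposite strand over 673 bases (6.28% of the exon length of elav), and exons of nos overlap those of CG11779 over 269 bases (11.5%). On the same strand, exons of elav overlap lncRNA:enrr over 2994 bases (27.9%) and exons of orb2 overlap CG43783 over 1319 bases (14.8%). Neither of these is in the count table, and the exon lengths behind RPKM and the shares below include the shared bases.

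Smn, the target of the hairpin, was examined first in every group. It had 30.1, 29.0 and 29.5 CPM in X7/C24_1 to X7/C24_3, 55.8, 66.2 and 55.4 CPM in C24_5 to C24_7, and 67.2, 67.8 and 64.1 CPM in WT_4 to WT_6. Smn was thus lower in each of these 3 X7/C24 libraries than in any C24 or WT library, with a log2 fold change of -1.15 against WT (SE 0.0558, edgeR quasi-likelihood adjusted p = 1.05e-05). In C24 against WT it stood at -0.16 (SE 0.0952, adjusted p = 0.741), and C24_6 lay inside the WT range. X7/C24_4 had 44.7 CPM of Smn, below every C24 and WT library and above the other X7/C24 libraries.

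Levels of the 8 genes spanned more than 3 orders of magnitude. In the 3 second-round WT libraries elav averaged 203.7 ± 9.82 RPKM and fne 173 ± 17.7 RPKM (SD, n = 3), which placed them at ranks 210 and 287 among 13428 genes with an exon length. Fmr1 followed with 126 ± 3.87 RPKM, pum with 70.9 ± 1.95 RPKM and Atx2 with 56.9 ± 7.03 RPKM (SD, n = 3). Levels of orb2 were 16.3 ± 0.499 RPKM and of Rbp9 5.67 ± 0.0537 RPKM (SD, n = 3). No neighbours in this order overlapped between WT libraries, although elav and fne came close, with the lowest elav library at 195 RPKM and the highest fne library at 193 RPKM. In C24_5 to C24_7 the ranges of elav and fne overlapped, as did those of pum and Atx2. In X7/C24_1 to X7/C24_3 the order at the top was turned round: fne had 288, 281 and 254 RPKM and elav 246, 239 and 215 RPKM.

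**Figure D1:**
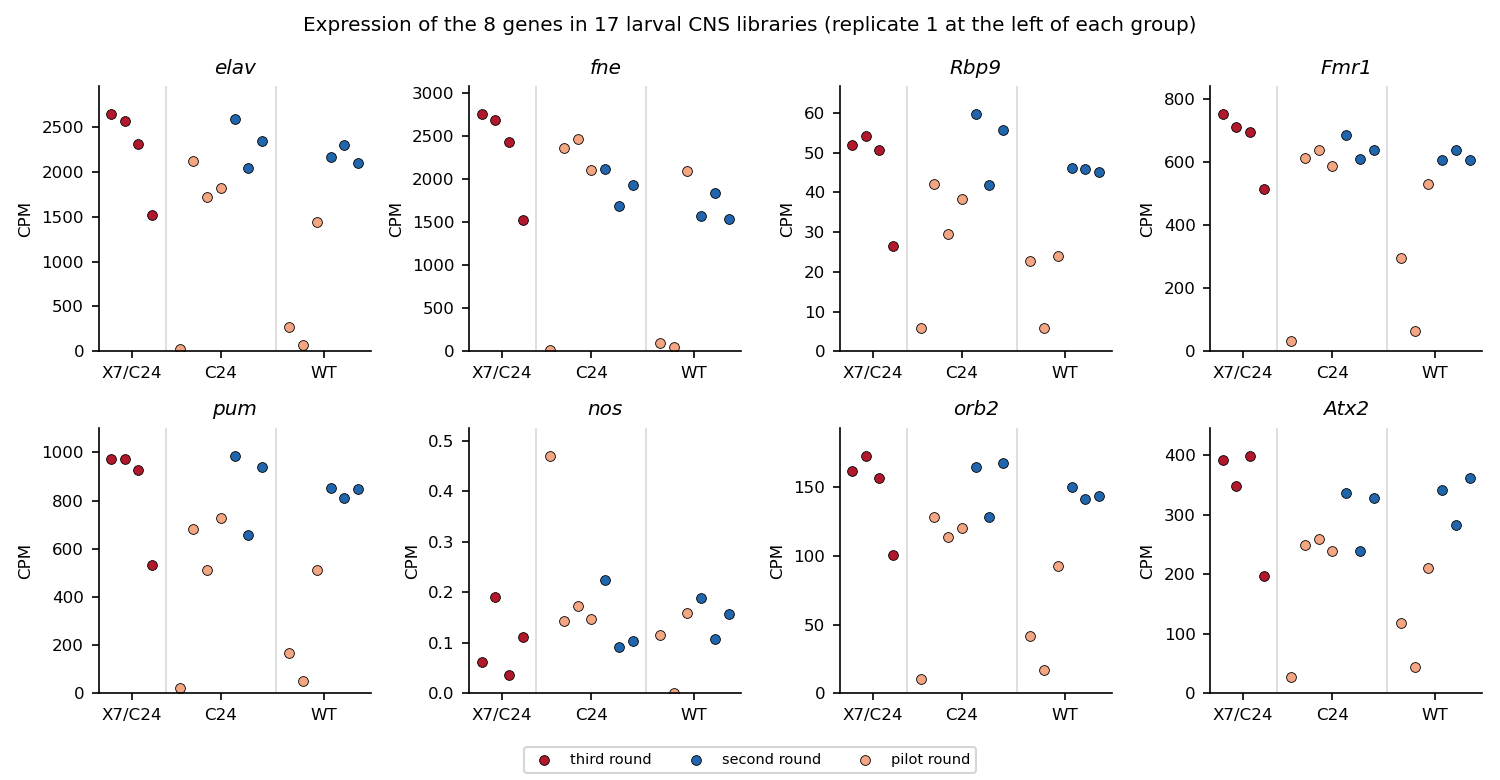
CPM of the 8 genes (vertical axes, linear and from 0, one scale per panel) in each of the 17 libraries, in the order X7/C24, C24 and WT, with replicate 1 at the left of each group and points coloured by sequencing round. C24_1, WT_1 and WT_2 lie near 0 for elav and fne, fne is highest in X7/C24_1 and X7/C24_2, and nos stays below 0.5 CPM in all libraries.

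nos was the only one of the 8 that was not measurable. This partner of Pumilio is best known for its role in the germline and the posterior of the embryo, and it also acts in sensory neurons of the larva. It had 0 to 5 counts in every library, at most 0.469 CPM in C24_1, and failed the filter on low counts in all comparisons. At these depths 3 counts, the level that a count of 0 still allows, corresponded to 0.173 CPM in WT_1 and 0.383 CPM in WT_2 on the same scale. No fold change is given for nos, since the groups were at or near this floor. The other 7 genes passed the filter in each comparison.

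fne was the gene with the largest fold change among the 7 in X7/C24. It had 2754, 2685 and 2433 CPM in X7/C24_1 to X7/C24_3, against 1579, 1846 and 1534 CPM in WT_4 to WT_6. The C24_5 to C24_7 libraries had 2115, 1689 and 1936 CPM. Every X7/C24 library of this comparison exceeded every C24 and WT library of the second round, while C24 and WT overlapped. Against WT fne was 1.6-fold higher in X7/C24 (log2 fold change 0.68, SE 0.0996, 95% interval 0.45 to 0.91, adjusted p = 0.00128). Against C24 it was 1.38-fold higher (0.47, SE 0.118, interval 0.19 to 0.74, adjusted p = 0.0390). In C24 against WT the log2 fold change was 0.21 (SE 0.117, interval -0.06 to 0.49, adjusted p = 0.733). In bulk tissue a change in the number of neurons and a change in RNA per neuron cannot be told apart.

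These fne calls differed in how well they withstood changes of the samples and settings. The call against WT was kept in 15 of 16 alternatives and lost with X7/C24_4 included (log2 fold change 0.52, adjusted p = 0.195), a library that had 1528 CPM of fne. The call against C24 was kept in 8 of 16 alternatives, and was lost without X7/C24_1, X7/C24_2, X7/C24_3, C24_5 or C24_7 (log2 fold change 0.44 to 0.54, adjusted p = 0.0645 to 0.155). It was also lost with a term for the kit set (0.47, adjusted p = 0.0906), with X7/C24_4 included (0.30, adjusted p = 0.588) and when the dependence on gene length was removed from every library (0.16, adjusted p = 0.427). The summed CPM of 6 ring gland markers also differed between these groups. It was 657 to 1005 CPM in X7/C24_1 to X7/C24_3, against 93.3 to 143 CPM in C24_5 to C24_7 and 46.5 to 96.3 CPM in WT_4 to WT_6. All 6 were detected in these 9 libraries, and their part in the fne difference was not tested. The sum was 89.5 CPM in X7/C24_4.

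elav itself showed a smaller difference. It had 2636, 2560 and 2302 CPM in X7/C24_1 to X7/C24_3, against 2159, 2298 and 2091 CPM in WT_4 to WT_6. C24_5 to C24_7 had 2584, 2040 and 2342 CPM. X7/C24_3 and WT_5 were nearly level on this scale, and when only the 6 libraries compared were scaled together they had 2219 and 2262 CPM, so that the groups overlapped. The log2 fold change was 0.21 in X7/C24 against WT (SE 0.0837, interval 0.02 to 0.40, adjusted p = 0.0737), 0.12 against C24 (SE 0.121, adjusted p = 0.558) and 0.09 in C24 against WT (SE 0.103, adjusted p = 0.807). None of these passed the threshold of 0.05.

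Rbp9 was the member of the family with the lowest level, with a log2 fold change in X7/C24 against WT close to that of elav. It had 51.8, 54.0 and 50.6 CPM in X7/C24_1 to X7/C24_3, against 46.0, 45.8 and 45.2 CPM in WT_4 to WT_6. The WT libraries lay within 1 CPM of each other, and all 3 X7/C24 libraries lay above them (0.21, SE 0.0537, adjusted p = 0.0152). In C24_5 to C24_7 Rbp9 had 59.6, 41.9 and 55.6 CPM, on both sides of X7/C24 and of WT. X7/C24 against C24 gave 0.01 (SE 0.121, interval -0.27 to 0.29, adjusted p = 0.974) and C24 against WT 0.20 (SE 0.120, adjusted p = 0.741).

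The make-up of the ELAV family was then compared within libraries, where scaling between libraries plays no part. Of the RPKM summed over elav, fne and Rbp9, fne made up 53.3, 53.3 and 53.5% in X7/C24_1 to X7/C24_3, against 44.4, 46.7 and 44.4% in WT_4 to WT_6. The share was 47.1, 47.4 and 47.3% in C24_5 to C24_7. The 3 groups did not overlap, and within X7/C24 and C24 the libraries differed by less than 0.5 percentage points. fne averaged 53.4 ± 0.111% in X7/C24, 47.3 ± 0.186% in C24 and 45.2 ± 1.35% in the WT libraries (SD, n = 3 each). This gave differences of 8.22 points between X7/C24 and WT, 6.10 points between X7/C24 and C24, and 2.12 points between C24 and WT. With 3 against 3 libraries the two-sided exact permutation test can give no p below 0.1. It gave 0.1 for each of these 3 differences, or 0.112 after adjustment over 9 tests of the family.

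elav took up the complement, with 45.4 ± 0.174% in X7/C24, 51.2 ± 0.139% in C24 and 53.4 ± 1.26% in the WT libraries (SD, n = 3 each). Rbp9 made up 1.26 ± 0.0670% in X7/C24, 1.53 ± 0.115% in C24 and 1.49 ± 0.0975% in the WT libraries (SD, n = 3 each). X7/C24_4 had an fne share of 52.4%, close to the other X7/C24 libraries, although its levels of elav and fne were both lower. With this library included the difference in the fne share was 7.98 points against WT and 5.85 points against C24. Each had an unadjusted exact permutation p of 0.0286, the smallest that 4 against 3 libraries can give. The main comparison left this library out.

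**Figure D2:**
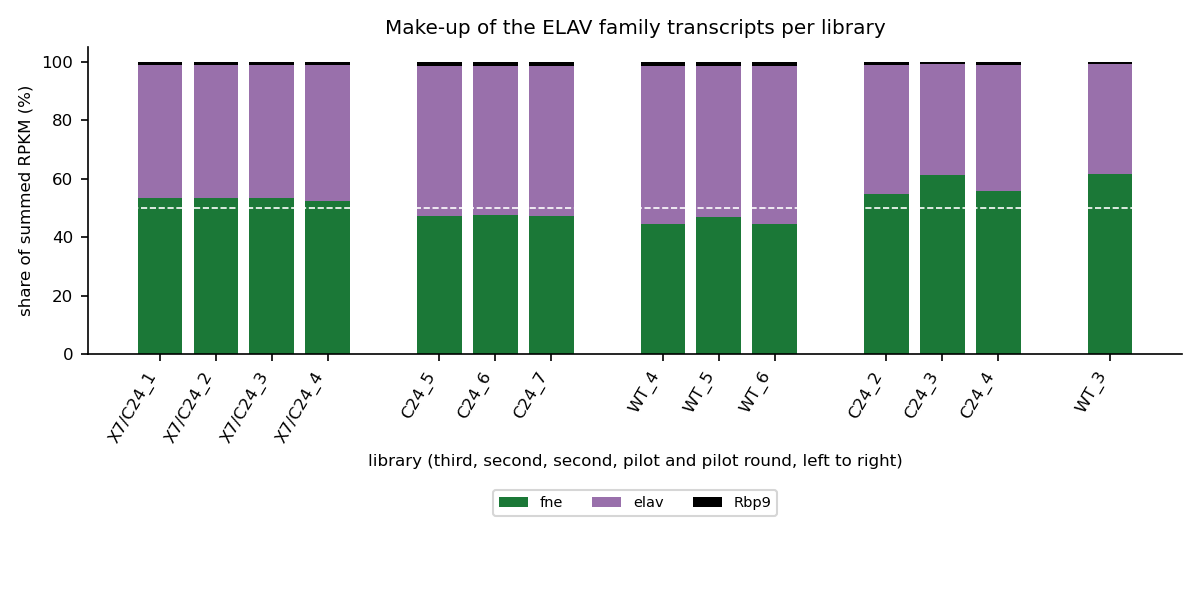
Share of fne, elav and Rbp9 in their summed RPKM (vertical axis, percent) in each of 14 libraries, with X7/C24 at the left, then C24 and WT of the second round, then C24 and WT of the pilot; the dashed line marks 50%. fne exceeds 50% in the X7/C24 and pilot libraries and stays at 44.4 to 47.4% in the second round.

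The same share also differed between sequencing rounds of 1 genotype. In the pilot libraries C24_2 to C24_4 fne made up 54.9, 61.1 and 55.8%, and in WT_3 61.5%. The mean was 57.3 ± 3.38% in pilot C24, against 47.3 ± 0.186% in second-round C24 (SD, n = 3 each), a difference of 9.98 points. With C24_3 included, this is larger than the 8.22 points between X7/C24 and WT. The 61.1% of C24_3 raised the pilot mean, and no difference is given without that library. The paper proposes that C24_3 and WT_3, which had lower GAL4 levels, be left out of further analysis. The ring gland markers summed to 331 to 768 CPM in these pilot C24 libraries and to 811 CPM in WT_3. Their sum was 89.5 CPM in X7/C24_4, where the fne share was 52.4%. In WT_1, WT_2 and C24_1 it was 1117 to 1290 CPM, with fne shares of 27.0 to 40.6%. The paper reports that the second round used more input cDNA than the pilot and had a smaller proportion of duplicated reads. The part of the markers, of the input or of the duplicates in the share was not tested.

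Fmr1 is the homolog of the human fragile X gene, and its loss in flies causes overgrown synapses. It had 752, 713 and 697 CPM in X7/C24_1 to X7/C24_3, against 606, 640 and 609 CPM in WT_4 to WT_6. C24_5 to C24_7 had 686, 610 and 641 CPM. All 3 X7/C24 libraries lay above all C24 and WT libraries. The log2 fold change was 0.24 against WT (SE 0.0635, interval 0.09 to 0.38, adjusted p = 0.0176) and 0.17 against C24 (SE 0.0854, interval -0.03 to 0.37, adjusted p = 0.230).

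pum, the translational repressor that also sets sodium channel levels in larval motor neurons, had 972, 972 and 927 CPM in X7/C24_1 to X7/C24_3. WT_4 to WT_6 had 853, 811 and 847 CPM. C24_5 to C24_7 had 984, 659 and 938 CPM, so C24_6 was below all WT libraries and the other 2 above them. pum was higher in X7/C24 than in WT (0.21, SE 0.0574, adjusted p = 0.0189), whereas X7/C24 against C24 gave 0.17 (SE 0.146, interval -0.17 to 0.50, adjusted p = 0.487).

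orb2 followed the same order at a lower level. It had 162, 172 and 157 CPM in X7/C24_1 to X7/C24_3, against 150, 141 and 144 CPM in WT_4 to WT_6. C24_5 to C24_7 had 164, 128 and 167 CPM, again with C24_6 below WT. The log2 fold change of orb2 was 0.19 in X7/C24 against WT (SE 0.0570, adjusted p = 0.0273) and 0.10 against C24 (SE 0.107, adjusted p = 0.555).

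Atx2 was the only gene of the 7 with a fold below 0 in C24 against WT (-0.12, SE 0.143, interval -0.46 to 0.21, adjusted p = 0.814). It had 391, 347 and 398 CPM in X7/C24_1 to X7/C24_3, 336, 239 and 329 CPM in C24_5 to C24_7, and 342, 283 and 361 CPM in WT_4 to WT_6. On this scale X7/C24_2 lay below WT_6. With only the 6 libraries of the comparison scaled together both had 341 CPM, and X7/C24 lay above WT by a fraction of a CPM. The log2 fold change in X7/C24 was 0.22 against WT (SE 0.0860, adjusted p = 0.0694) and 0.34 against C24 (SE 0.131, adjusted p = 0.127), and neither passed the threshold.

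Of the 8 genes, 5 thus passed the test in X7/C24 against WT (fne, Rbp9, Fmr1, pum and orb2), all of them higher. Over all 9657 genes tested, 42.3% were called, with 21.2% higher in X7/C24 and 21.2% lower. All 7 genes tested had a fold above 0, with a median log2 fold change of 0.21 beside -0.0038 for all genes tested. In 6 of the 7, all but elav, every X7/C24 library lay above every WT library when only the libraries compared were scaled together, while X7/C24 lay above in 26% and the groups were apart in either direction in 53.3% of all genes. In X7/C24 against C24 the count was 1 of 8 (fne, higher) beside 13.5% of all genes, of which 7.59% were higher and 5.94% lower. X7/C24 lay above C24 without overlap for fne, Fmr1 and Atx2, beside 17.8% of all genes, and 37.6% were apart in either direction. Both comparisons use the same X7/C24 libraries.

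In C24 against WT 0 of the 7 genes passed the edgeR test, beside 0.394% of all genes (0.16% higher and 0.234% lower), and 0 had an unadjusted p under 0.05. DESeq2 and limma-voom called 0 of them too. The groups overlapped for all 7, whereas they were apart in 13.6% of all genes, with C24 above in 6.72%. Intervals of the log2 fold changes reached from -0.46 (Atx2) to 0.49 (fne) over the 7 genes, and that of Fmr1 was narrower (-0.11 to 0.25). Changes inside the interval of a gene were not excluded for that gene. When WT_5 and C24_6 were left out, as the authors did in a second comparison, fne (0.40, adjusted p = 0.0247) and Rbp9 (0.35, adjusted p = 0.0384) passed the threshold with 2 libraries a group, beside 2.23% of all genes (1.49% higher and 0.74% lower).

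**Figure D3:**
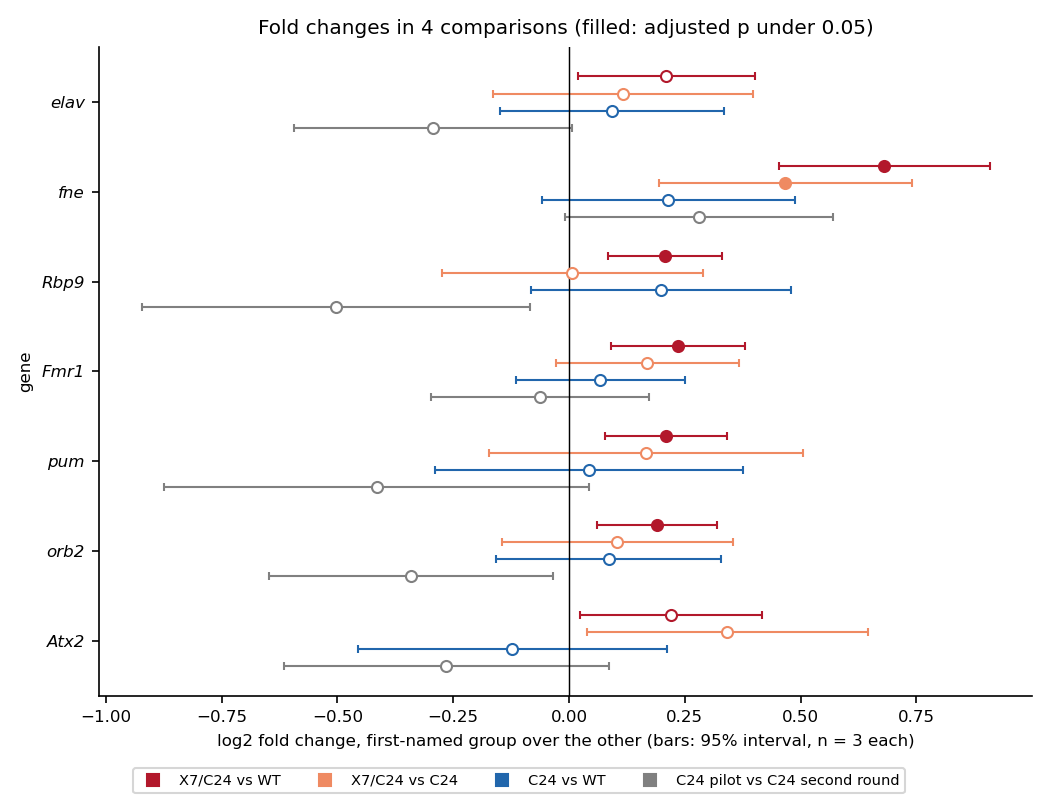
Log2 fold change (horizontal axis) of the 7 genes that passed the filter in 4 comparisons of 3 against 3 libraries, the first-named group over the other, with 95% intervals; filled symbols have an adjusted p under 0.05. The fold of fne in X7/C24 is 0.68 against WT and 0.47 against C24, and the other 6 genes lie at 0.19 to 0.24 against WT.

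The 5 calls in X7/C24 against WT depended on the setting to different degrees. With X7/C24_4 included 0 of them remained, beside 7.91% of all genes called (4.63% higher and 3.27% lower). Folds then ran from 0.01 (Rbp9) to 0.52 (fne). With the gene length trend removed fne remained as the only call (0.57, adjusted p = 0.0114), beside 48.7% of all genes (19.6% higher and 29.1% lower). Exon lengths of the 7 genes were 4904 to 11798 bases, beside a median of 2160 bases over the genes tested. Leaving out X7/C24_1 or WT_4 kept fne and Rbp9, leaving out X7/C24_2 or WT_6 kept fne alone, and leaving out X7/C24_3 or WT_5 gave 6 calls with elav added. Over all genes these settings called from 29.4% (without WT_4) to 48.6% (without WT_5).

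**Figure D4:**
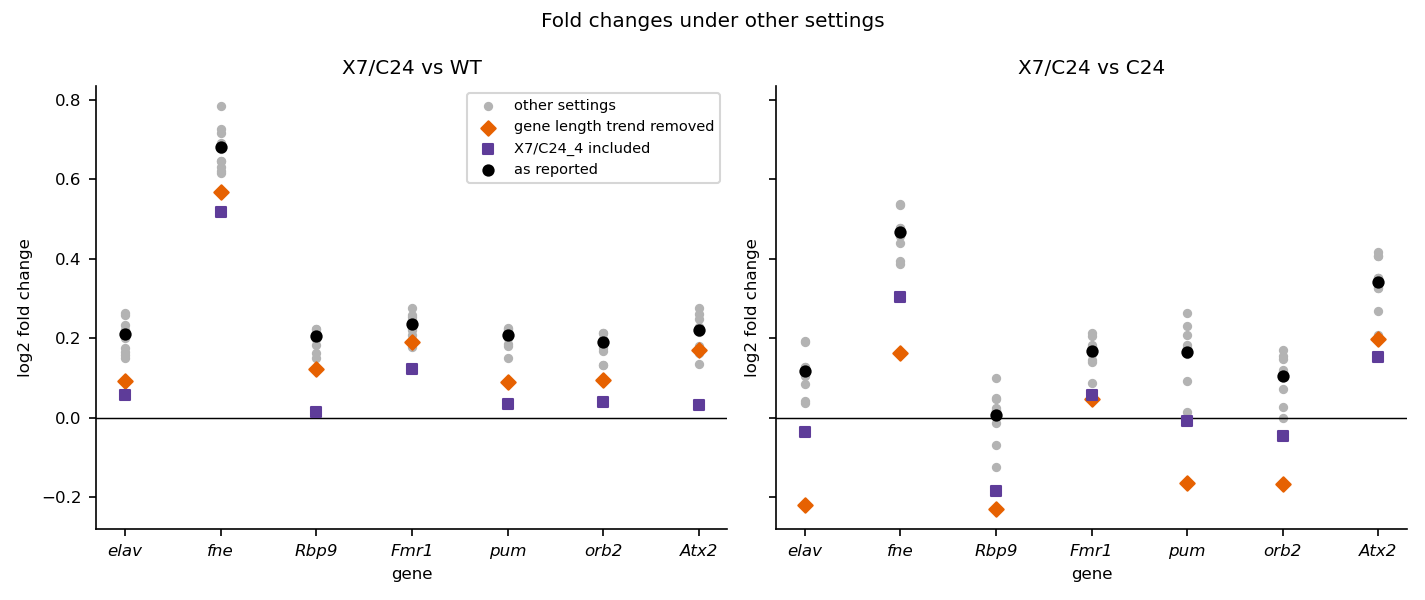
Log2 fold change (vertical axes, the same scale) of the 7 genes in X7/C24 against WT (left) and against C24 (right), as reported (black), with the gene length trend removed (orange), with X7/C24_4 included (violet) and under the remaining settings (grey). Against WT all values stay above 0, whereas against C24 elav, Rbp9, pum and orb2 change sign.

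Cell type markers were compared between these libraries as well. Of all genes, 42.3% were called in X7/C24 against WT, with 21.2% higher and 21.2% lower. Of 12 neuron markers, 4 were higher and 0 lower in X7/C24 than in WT, and their summed level was 6490 to 7274 CPM in X7/C24_1 to X7/C24_3, against 5795 to 6360 CPM in WT_4 to WT_6. Of 7 neuroblast markers, 5 were lower and 1 higher, although their sums overlapped, with 2294 to 2451 CPM in X7/C24 and 1935 to 2654 CPM in WT. Of 8 imaginal disc markers, 6 were higher and 0 lower, with sums of 1193 to 1210 CPM in X7/C24, against 995.1 to 1069 CPM in WT. The disc sums were 329.1, 112.3 and 49.4 CPM in WT_1, WT_2 and C24_1, where the neuron sums were low too. Whether the disc sums follow the amount of disc tissue was not tested. Of 9 glia markers, 2 were lower and 0 higher, with sums of 1336 to 1501 CPM in X7/C24, against 1581 to 1624 CPM in WT. Of 6 hemocyte markers, 5 were higher and 0 lower, with a median log2 fold change of 4.32. Their sums were 276 to 431 CPM in X7/C24, against 172 to 186 CPM in WT, with 1 of 6 at 0 in WT_5. The part of these marker levels in the differences above was not tested.

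The comparison of pilot with second-round C24 libraries held the genotype constant. C24_2 to C24_4 had 2358, 2463 and 2111 CPM of fne, against 2115, 1689 and 1936 CPM in C24_5 to C24_7. elav had 2119, 1716 and 1822 CPM in the pilot, against 2584, 2040 and 2342 CPM in the second round. On the scale of this comparison the pilot libraries were all above the second round for fne and all below it for Rbp9 and orb2, but overlapped it for the other 4 genes. The groups were apart in 45.3% of all genes, with the pilot above in 23.9%. The log2 fold changes were 0.28 for fne (SE 0.123, adjusted p = 0.137), -0.29 for elav (SE 0.128, adjusted p = 0.136), -0.50 for Rbp9 (SE 0.178, adjusted p = 0.101) and -0.34 for orb2 (SE 0.130, adjusted p = 0.110).

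With edgeR 0 of the 7 genes passed the threshold between these rounds, beside 2.12% of all genes (2.11% higher and 0.0107% lower in the pilot). At an unadjusted p under 0.05 there were 2 (Rbp9 and orb2), and DESeq2 and limma-voom called 0. Without C24_3 and C24_6, an alternative added after the data had been seen, 5 were lower in the pilot: elav (-0.29), Rbp9 (-0.48), pum (-0.41), orb2 (-0.39) and Atx2 (-0.41), with adjusted p of 0.00339 to 0.0353. In that setting 41.8% of all genes were called, 21.1% higher and 20.7% lower in the pilot. The split of the calls between directions also moved with the tool, from 198 higher and 1 lower with edgeR to 1119 higher and 1060 lower with DESeq2. With the length trend removed elav (0.62) and Rbp9 (0.23) lay above 0 in the pilot.

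In the 3 libraries with low neuron markers all 7 genes were low, but not equally so. Relative to the mean of the 6 second-round libraries, fne stood at -6.86 in C24_1, -4.14 in WT_1 and -5.14 in WT_2 on the log2 scale. elav, which the authors used as a marker when they set these libraries aside, stood at -6.27 in C24_1, -3.04 in WT_1 and -4.92 in WT_2. In each of these libraries fne had the lowest value of the 7 genes. After elav pum was lowest in C24_1, at -5.31, and it stood at -2.32 in WT_1 and -4.07 in WT_2. Rbp9 was lowered least in C24_1 (-3.05), and Fmr1 least in WT_1 (-1.08). The medians over the 12 neuron markers were -6.04, -3.92 and -4.86 in these libraries, and those over 9 glia markers -2.89, -0.70 and -2.35.

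The fourth X7/C24 library departed less. Its values ran from -0.21 for fne to -0.87 for Rbp9, below 0 for all 7 genes, with -0.64 as the median of the neuron markers. Glia markers were at 0.28 in the same library. X7/C24_1 to X7/C24_3 lay above 0 for all 7 genes, at 0.64, 0.60 and 0.46 for fne and at 0.04 to 0.35 for the other genes.

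**Figure D5:**
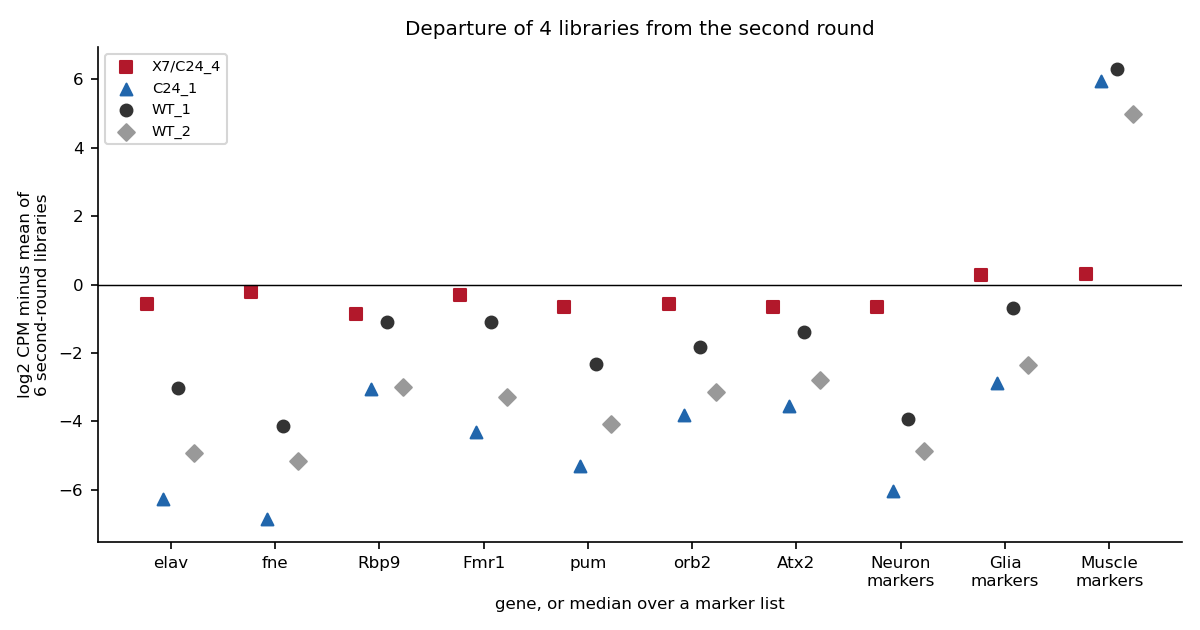
Difference in log2 CPM from the mean of the 6 second-round libraries (vertical axis) for the 7 genes and for the medians of neuron, glia and muscle markers, in X7/C24_4, C24_1, WT_1 and WT_2. The 7 genes lie below 0 in all 4 libraries, lowest for fne in C24_1 (-6.86), while the muscle markers lie above 0.

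Partners and RNA targets of these proteins were read from 7 lists with 68 different genes. In C24 against WT 0 of the 68 passed the edgeR test, beside 0.394% of all genes, and 1 had an unadjusted p under 0.05. In X7/C24 against WT 17 of 67 tested were higher and 5 lower, with a median log2 fold change of 0.08, beside 21.2% of all genes in each direction. In X7/C24 against C24 2 of the 68 were higher and 2 lower, beside 7.59% of all genes higher and 5.94% lower.

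For the ELAV proteins, 3 of 8 partners and targets were higher in X7/C24 than in WT and 0 lower, with a median of 0.14. They were Adar, the RNA editing enzyme (0.32, SE 0.0699, adjusted p = 0.00756), Ago-01, the Argonaute of the microRNA pathway (0.24, SE 0.0613, adjusted p = 0.0137), and brat. Among 7 genes of the Pumilio complex and its targets, 3 were higher and 1 lower, with a median of 0.16. W (also known as hid), an inducer of apoptosis, was higher (0.88, SE 0.0834, adjusted p = 0.000196), as was the synaptic scaffold gene dlg1 (0.25, SE 0.0634, adjusted p = 0.0135). CycB, the mitotic cyclin, was lower (-0.38, SE 0.0515, adjusted p = 0.000904). Both W (0.60, adjusted p = 0.0108) and CycB (-0.31, adjusted p = 0.0312) also passed the test in X7/C24 against C24, where the call of W was kept in 15 of 16 alternatives and that of CycB in 8 of 16.

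Of 13 tested partners and targets of FMRP, 2 were higher and 2 lower, with a median of -0.0067. chic, which encodes profilin, was higher (0.46, SE 0.117, adjusted p = 0.0136), and Ago-01 belongs to this list too. Ago-02, the Argonaute of the siRNA pathway, was lower (-0.25, SE 0.0523, adjusted p = 0.00648), as was the RNA helicase gene bel (-0.19, SE 0.0614, adjusted p = 0.0367). ppk, a sodium channel gene of sensory neurons, was lower in X7/C24 than in C24 (-1.19, SE 0.302, adjusted p = 0.0394), a call kept in 4 of 15 alternatives.

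Among 7 genes around the CPEB proteins 3 were higher and 0 lower, with a median of 0.27. Tequila, a target of Orb2 with a role in memory, had 0.40 (SE 0.0659, adjusted p = 0.00220) and CaMKII, a kinase of synapses, 0.39 (SE 0.130, adjusted p = 0.0386). With the gene length trend removed this list had 2 higher and 2 lower, and without WT_5 it had 3 higher and 2 lower. The Pumilio list had 1 higher and 1 lower with that trend removed. Of 7 partners of Ataxin-2 only per was called, with a lower level in X7/C24 (-0.49, SE 0.112, adjusted p = 0.00911). Of 9 subunits and partners of the CCR4-NOT deadenylase, the complex that shortens poly(A) tails, 0 passed the edgeR test and 3 had an unadjusted p under 0.05.

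A list of 19 other RNA-binding proteins of neurons had 8 higher and 1 lower, with a median of 0.18. The highest were bru-2 (0.74, SE 0.0715, adjusted p = 0.000203) and bru-3 (0.30, SE 0.0888, adjusted p = 0.0257), both of the Bruno family, and the lower one was CG5720 (Nab2), which binds poly(A) (-0.26, SE 0.0538, adjusted p = 0.00601). bru-2 was also higher against C24 (0.67, SE 0.157, adjusted p = 0.0304), a call kept in 10 of 16 alternatives. With the gene length trend removed this list had 5 higher and 1 lower, and the list of ELAV partners 0 higher and 1 lower. Over all genes that setting gave 19.6% higher and 29.1% lower. With X7/C24_4 included 0 genes of all 7 lists were called against WT, beside 7.91% of all genes.

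The patterns of the 7 genes were compared over the 10 libraries of the second and the third round. Pearson's r between log2 CPM of fne and the other 6 genes ran from 0.61 (Atx2) to 0.92 (Fmr1), and was 0.77 with elav. Between the other 6 genes it ran from 0.78 (Fmr1 and Atx2) to 0.98 (pum and orb2). X7/C24 and the third round coincide among these libraries, so these values are descriptions. The genes most like fne were CG6422 (r = 0.99), Vap-33-1 (0.98) and rdx (0.98), of 9658 compared, and 149 genes had r above 0.9. Mnt, CG9821 and CG42258 were most like elav (0.99, 0.99 and 0.98), and Sema-1a, CG32016 and CG4612 most like Rbp9 (0.99, 0.98 and 0.98).

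CkIIbeta (0.99), CG15628 (0.98) and Rab35 (0.97) had the patterns closest to Fmr1. For pum they were gish, alpha-Adaptin and Eip93F (0.996, 0.995 and 0.993), for orb2 Asator, nAcRalpha-80B and bip2 (0.99 for each), and for Atx2 bif, jub and CG7991 (0.99 for each). As many as 908 genes had r above 0.9 with pum. Without X7/C24_4, which is low for most of the 7 genes, r fell by most for CG32016 with Rbp9, to 0.92 over 9 libraries, and that of CG6422 with fne was 0.99.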

How the data were processed

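mRNA-seq was performed on poly(A) RNA of 17 pools of larval CNS. Low-quality reads were dropped by the authors, who aligned the rest with BWA to the BDGP5 genome, discarded duplicates and counted read pairs per gene of the FlyBase annotation with htseq-count, without regard to strand. The deposited counts are whole numbers without normalization (7883183 to 28339670 per library). Where a library had 0 counts, 3 counts were used as the upper limit, which covers counting error only. Groups follow the sample titles, and rounds and kit sets the study's tables. Each library is labelled as a separate biological replicate, and no pair of libraries agreed within sampling noise. WT_1, WT_2, WT_3 and C24_1 to C24_4 entered no test of genotype, and the authors' normalized table and other tables were not used.

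The analysis was run under R 4.3.3 with edgeR 4.0.16, using TMM scaling, filterByExpr, the quasi-likelihood test on 3 against 3 libraries over all genes, and a Benjamini-Hochberg threshold of 0.05. The alternatives were DESeq2 1.42.0, limma-voom 3.58.1, other scalings and filters, a joint fit, a kit term, removal of a trend on gene length (loess, span 0.5), the replicate number as a block, and libraries left out or added. Shares were compared by two-sided exact permutation tests. Log2 CPM used a prior count of 2. Exon lengths and positions came from the BDGP6 annotation, which matched 13428 (96.8%) of 13872 genes, 275 of them by symbol (orb2 among these). The test was tried on simulated data with 200 genes changed 2-fold. It recovered 59.5% of them in the comparison of C24 rounds and 80 to 85% in the genotype comparisons. False calls made up 5.6 to 7.7% of the calls, at a threshold of 0.05. Changes smaller than 2-fold were not simulated.

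The 8 genes and the gene and marker lists were chosen with earlier results of these data known. Named are the 8 genes, Smn, for each list the 2 genes called with the greatest positive and the 2 with the greatest negative fold in X7/C24 against WT, list genes called in C24 against WT, and for each of the 7 genes the 3 with the highest Pearson r. brat and ppk and the list genes named against C24 were chosen after their values were seen.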

Additional observations from a re-analysis of the deposited data

Results flagged for a closer look

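Within groups of 4 to 7 libraries, 11 of 30 values tested held a library whose gap to its neighbour, relative to the range of the group, exceeded Dixon's critical value, a limit that chance passes in about 1 of 20 groups. Of these, 7 belonged to C24_1 among the 7 C24 libraries. It was the lowest for elav (28.9 CPM, the others 1716 to 2584), fne (15.2 CPM, the others 1689 to 2463), Fmr1 (31.7 CPM), orb2 (10.5 CPM) and Atx2 (26.7 CPM). The same library was the highest for nos, at 0.469 CPM or 3 counts, and for Smn, at 482.1 CPM beside 55.4 to 108 CPM in the other C24 libraries. WT_2 was the highest of 6 WT libraries for Smn in the same way, with 481.8 CPM beside 64.1 to 132 CPM. In the X7/C24 group the fourth library stood apart from the other 3 with a low level of Rbp9 (26.6 CPM, the others 50.6 to 54.0) and of pum (532 CPM, the others 927 to 972), and a high level of Smn (44.7 CPM, the others 29.0 to 30.1).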

How the results depend on the processing

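For the 7 genes tested and Smn in 4 comparisons, 497 of 520 fold changes under an alternative kept their direction and 23 were reversed. 38 lost the threshold and 16 gained it. The cause of these changes was not tested.

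In C24 against WT the number of genes called (37) was 112 with DESeq2, 10 with at least 10 counts in every library, 11 with the kit term, 127 with the gene length trend removed and 214 without WT_5 and C24_6, which gave 2 of the 8 genes. Leaving out 1 library gave 5 to 27 genes and 0 of the 8. The replicate block gave 14 genes, 0 of the 8, and pum at -0.036. For the numbers shared by C24 and WT, deviations from the group means correlated at -0.15 for number 5 and -0.21 for number 6. These values cannot decide whether the numbers pair the libraries, since deviations from the mean of a small group depend on each other. No paired analysis was possible for the other comparisons because X7/C24 shares no number with the libraries it was set against, and the C24 rounds share none. Leaving out 1 library moved pum between -0.053 (without C24_5) and 0.19, with -0.019 without C24_7, and Atx2 between -0.20 and 0.010 (without C24_6).

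In X7/C24 against WT, 3 of the 8 were called with total counts (43.9% of all genes) and 2 in the joint fit (27.6%). The count was 1 with the length trend removed (48.7%) and 0 with X7/C24_4 (761 genes, 7.91%), against 5 of 8 and 4087 genes (42.3%). Leaving out 1 library gave 1 to 6 of the 8 and 2846 to 4792 genes. Total counts moved the share of higher calls from 50% to 38.2%, and the removal of the length trend to 40.3%.

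In X7/C24 against C24, 1949 genes were called in the joint fit, 752 with the kit term (0 of the 8), 2837 with the length trend removed and 33 with X7/C24_4 (0 of the 8), against 1280. Leaving out 1 library gave 461 to 2707 genes and 0 to 2 of the 8, and Atx2 was called without C24_6 (0.21, adjusted p = 0.0487) and with the length trend removed (0.20, adjusted p = 0.0499). The share of higher calls was 56.1%, 44.8% with total counts, 38.0% with the length trend removed, 65.4% with the kit term, and 78.2%, 79.3% and 81.6% without X7/C24_1, X7/C24_2 and X7/C24_3 in this order. Rbp9 was reversed with total counts (-0.068) and without X7/C24_2 (-0.013) or C24_6 (-0.12), and orb2 without C24_6 (-0.00023). Leaving out 1 library moved Rbp9 up to 0.10 and orb2 up to 0.17. With the length trend removed elav was at -0.22, Rbp9 at -0.23, pum at -0.16 and orb2 at -0.17, and with X7/C24_4 at -0.036, -0.18, -0.0076 and -0.045 in this order.

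Between the C24 rounds 2179 genes were called with DESeq2, 1 with limma-voom, 344 with total counts, 1148 in the joint fit, 1 with the kit term, 434 with the length trend removed and 3969 without C24_3 and C24_6 (5 of the 8), against 199. The share of higher calls was 99.5%, against 51.4% with DESeq2, 79.9% in the joint fit, 67.5% with the length trend removed and 50.5% without C24_3 and C24_6. Leaving out 1 library gave 0 to 303. Fmr1 was at 0.0026 with total counts. With the length trend removed elav was at 0.62, Rbp9 at 0.23, Fmr1 at 0.39, pum at 0.55, orb2 at 0.48 and Atx2 at 0.33, all reversed.

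The share of Rbp9 in C24 less that in WT was reversed without C24_7 (-0.0024 points) and WT_5 (-0.016 points), and reached 0.11 points without C24_6. With X7/C24_4 the differences in share were -7.71 (elav), 7.98 (fne) and -0.27 (Rbp9) points against WT and -5.54, 5.85 and -0.31 points against C24. Each had an exact permutation p of 0.0286, not adjusted for the number of tests.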

Other observations

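WT_3 entered no comparison. It had 1437 CPM of elav and 2096 CPM of fne, a ratio of fne to elav per exon length of 1.63, which is the highest of the 17 libraries. Its Smn level was 122 CPM, beside 64.1 to 67.8 CPM in WT_4 to WT_6. The pilot libraries C24_2 to C24_4 had 82.8, 108 and 77.8 CPM of Smn. These levels were above the second-round WT libraries but below the 122 CPM of WT_3, which came from the same round. Between pilot and second-round C24 the log2 fold change of Smn was 0.61 (SE 0.160, edgeR quasi-likelihood adjusted p = 0.0840).

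In the libraries with low neuron markers the make-up of the ELAV family was different from that of the other libraries. Rbp9 made up 14.4% of the summed RPKM in C24_1, 7.30% in WT_1 and 5.78% in WT_2, beside 0.835 to 1.61% in the other 14 libraries. The share of fne was 31.7% in C24_1, 27.0% in WT_1 and 40.6% in WT_2, the lowest 3 of the 17. These rest on 37 counts of Rbp9 in C24_1, 396 in WT_1 and 47 in WT_2.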
